A study of Rattus norvegicus with 24 samples.

Results

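The sham-operated limbs of the series are both tibialis anterior (TA) muscles of 3 aged rats, 6 of 24 samples and 3 of 12 animals. Members were chosen by their labels: the left limbs of animals 354, 377 and 379 carry the condition sham, and the right limb of the same animal is its partner. All rats were male Fischer 344 animals aged 23 ± 1 months. A sham animal had the same operation on the left common peroneal nerve, which supplies the TA, but received no tetrodotoxin (TTX), a toxin that blocks nerve impulses. The paper calls the sham controls saline-infused. In the other 9 animals the left nerve was silenced for 6 to 7 days (atrophy), left free of TTX for a further 9 days (recovery), or silenced again for another 5 to 6 days (repeated atrophy), with 3 animals each, and their right limbs were untreated (contralateral). Animal 354 was taken with the atrophy group, animal 377 with the recovery group and animal 379 with the repeated atrophy group. With 1 sham animal at each time point, a difference between animals and one between time points cannot be told apart. The sham limbs show whether left and right limbs differ after the operation without TTX. They also show how much the muscle of different animals varies when neither limb received TTX. With no unoperated animal in the series, an effect of the operation on both limbs cannot be seen. The sources used here give no measure of nerve activity in sham limbs.

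The TA is a fast muscle that lifts the foot, and its fibres depend on nerve impulses. When impulses stop, fibres switch on subunits of the acetylcholine receptor along their length, embryonic myosins such as Myh3 and Myh8, and ubiquitin ligases that mark proteins for the proteasome, among them Trim63 and Fbxo32. Some of these genes also respond to circulating glucocorticoids and to fasting, which reach both limbs, while a local injury or a silenced nerve acts on 1 side.

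The deposited values are counts per 1000000 reads (CPM), so that each library totals 1000000. The value of 1 read, read off the spacing of low values, was 0.0324 to 0.0484 CPM in the sham limbs. The depth this gives, in units of 1000000 reads, was 20.7 to 30.9 (median 27.4), and 18.9 to 30.9 over all 24 limbs. Between 12799 and 13561 rows were above 0 in a sham limb, and the top 10 rows took 21.8 to 29.99% of a library. All 8 defining muscle markers were present in every sham limb, with a summed level of 128020 to 195410 CPM. Lymphocyte markers summed to 10.1 to 19.5 CPM in animals 377 and 379 and to 155 and 140.4 CPM in 354, while Cd3e, Cd3d and Ms4a1 reached at most 0.466 CPM in any sham limb.

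In the comparison of left with right limbs, each animal serving as its own control, none of 13483 rows passed the limma test (adjusted p of at most 0.05 and a fold of at least 1.2; 0.0% called), and the smallest adjusted p was 0.936. An unadjusted p below 0.05 was reached by 576 rows (4.27%), 409 of them higher (3.03%) and 167 lower (1.24%) in the left limb. This count was 253 without animal 354, 2411 without 377 and 210 without 379, with 0 rows called each time. Of 6856 rows with a mean of at least 10 CPM, 6690 (97.6%) had a 95% interval of the left minus right difference inside 2-fold, and the median width on either side of the estimate was 0.31 on the log2 scale. The intervals cover the spread between these 3 pairs only. Each pair comes from a different time point after the operation, so a difference present at 1 time point only has no replicate in this test.

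The genes named next did not pass the test. They are those with the largest left minus right differences on the log2(CPM + 1) scale among rows of unadjusted p below 0.05 with 1 direction in all 3 animals and a mean of at least 10 CPM in the left or the right limbs, and there were 274 such rows higher in the left limb and 69 lower. Values are given in the order 354, 377, 379. Rrad, a small GTPase-related protein that dampens calcium channels, was at 19.6, 37.98 and 34.2 CPM in the left limbs and at 12.2, 18.7 and 15.3 CPM in the right limbs. Each left limb was above its own right limb, and all left limbs were above all right limbs. The difference was 0.91 on the log2 scale (SE 0.14, limma unadjusted p = 0.00085, adjusted p = 0.936). Gadd45a, a growth arrest gene raised in denervated muscle, read 82.2, 85.3 and 616 CPM on the left and 57.4, 40.7 and 356 CPM on the right, a difference of 0.78 (SE 0.12, limma unadjusted p = 0.00086). Here the groups overlapped, because both limbs of 379 were far above the other 4. Ankrd1, a stretch- and stress-responsive protein of the sarcomere, showed the same layout, with 132, 310 and 2544 CPM on the left against 57.0, 116 and 2272 CPM on the right (0.92, SE 0.25, limma unadjusted p = 0.011). The gap between 379 and the other animals was larger than any gap between limbs.

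Txn1, the redox protein thioredoxin, was at 28.4, 16.4 and 74.7 CPM on the left and 18.6, 10.99 and 46.1 CPM on the right, with differences between 0.54 and 0.68 in every animal. Fabp5, a fatty acid binding protein, was at 24.2, 15.2 and 19.1 CPM against 16.4, 8.81 and 13.2 CPM. Snai3 had the largest mean difference (1.08), but its left minus right value was 0.02 in animal 354, and Tgif1 likewise ranged from 0.17 to 1.496. Among the genes lower in the left limb, Dnmt3a, a DNA methyltransferase, was at 5.71, 10.8 and 5.58 CPM on the left and 13.5, 12.0 and 16.4 CPM on the right. Left and right limbs did not overlap for Dnmt3a, yet the difference in animal 377 was −0.15, beside −1.11 in 354 and −1.41 in 379. Prkar2a, a regulatory subunit of protein kinase A, was at 25.6, 36.5 and 38.1 CPM against 48.9, 43.0 and 66.1 CPM (−0.64). Jph2, which holds the calcium store against the surface membrane, was at 65.3, 177 and 35.7 CPM against 119.9, 179 and 72.2 CPM (−0.63). For both genes the gap was smallest in animal 377 (−0.23 and −0.02).

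By gene group, 0 members of the 30 lists passed in this comparison. The median left minus right difference was 0.02 over all rows, 0.16 for 31 proteasome genes and 0.19 for 31 ribosomal protein genes. In each of these lists 8 genes had an unadjusted p below 0.05, all higher in the left limb, where 3.03% of all rows had such a value. The ribosomal median was 0.29, −0.04 and 0.32 in animals 354, 377 and 379. Erythroid markers, which stand for blood left in the tissue, had a median of 0.32 (0.46, −0.04 and 0.35), with the hemoglobin chain Hbb at 574, 154 and 229 CPM on the left and 415, 158 and 156 CPM on the right. Both lists were higher on the left in 354 and 379 and level in 377, and the part of blood in the ribosomal difference was not tested. Schwann cell markers, which wrap the nerve, had a median of −0.03 (−0.20, 0.35 and −0.20) and 2 of 14 with an unadjusted p below 0.05, both lower on the left, beside 1.24% of all rows. Mbp, a myelin protein, was at 5.58, 0.668 and 2.36 CPM on the left and 7.003, 4.71 and 6.34 CPM on the right. Macrophage markers had a median of 0.19, made up of 0.10, 0.65 and −0.17. In bulk tissue, fewer cells of a type and less RNA per cell cannot be told apart.

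Counting the rows that differed at least 2-fold between the limbs of 1 animal sets the operation beside TTX. Of 6766 rows with a mean of at least 10 CPM over all 24 limbs, 34 (0.503%) differed in animal 354, 126 (1.86%) in 377 and 39 (0.576%) in 379. In animal 377, 119 of the 126 were higher in the left limb (1.76%), and 7 lower (0.103%). In 354, 9 were higher (0.133%) and 25 lower (0.369%), and in 379, 12 higher (0.177%) and 27 lower (0.399%). After repeated atrophy 19.4 to 29.6% of rows differed between limbs, and after recovery 3.75 to 8.42%. After the first atrophy the values were 28.5, 0.872 and 7.38%, so TTX animal 367, at 0.872%, lay between the sham animals. The same count between different sham animals was 6.70 to 18.1% in left limbs and 7.08 to 18.7% in right limbs. Each of these 6 pairs was farther apart than the limbs of any sham animal. The 36 pairs of contralateral limbs spanned 0.591 to 20.7% (median 4.86%), a range that holds all 6 pairs of sham limbs from different animals.

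**Figure D1:**
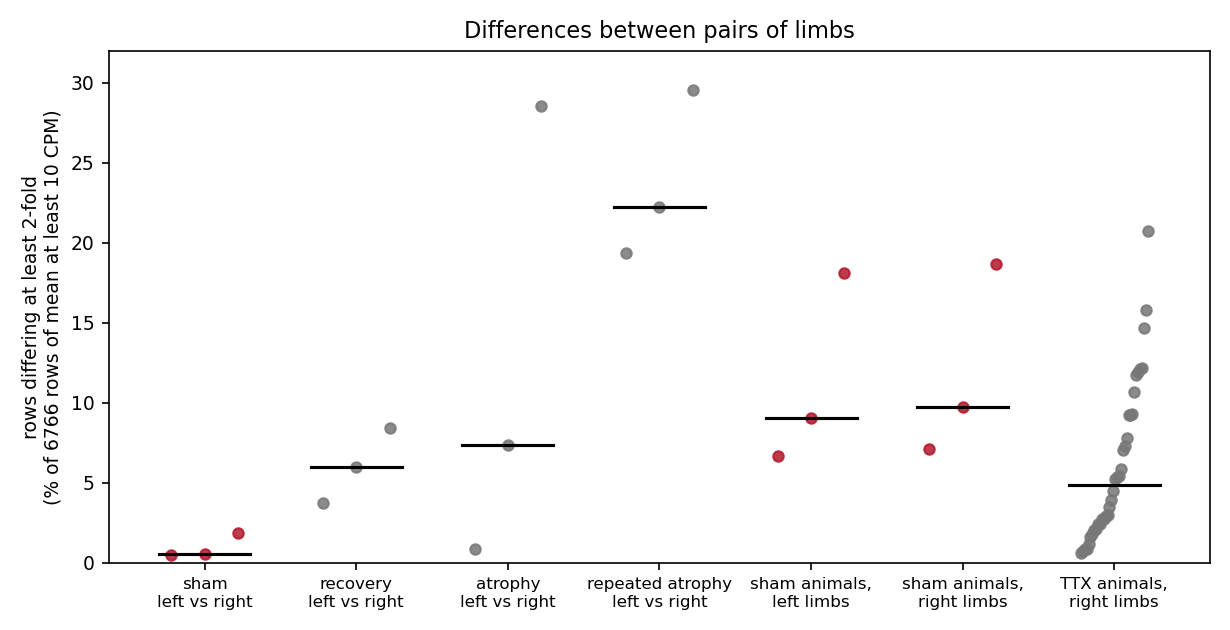
Share of 6766 rows (mean of at least 10 CPM) that differed at least 2-fold between pairs of limbs, in %. Each point is 1 pair, the black line is the median, and pairs of sham limbs are red; the limbs of a sham animal differed in 0.503 to 1.86% of rows, and limbs of different sham animals in 6.70 to 18.7%.

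Animal 377 was the sham animal whose limbs differed most, and the disuse and denervation genes were part of that difference. Of 29 measured genes of the list, 17 were at least 2-fold higher in its left limb and 0 at least 2-fold lower, beside 1.76% and 0.103% of rows with a mean of at least 10 CPM. The median left minus right value of the list was 1.09 in 377 and −0.20 in both 354 and 379, where 1 gene each was at least 2-fold higher and 1 and 2 genes at least 2-fold lower. In 27 of the 29 genes the value of 377 was above that of both other sham animals (50.7% of all rows). A single pair of limbs allows no test, and these values are a description.

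Acetylcholine receptor subunits made up part of it. Chrna1, the alpha subunit, was at 17.8 and 23.99 CPM in 354, 59.3 and 18.3 CPM in 377 and 71.7 and 87.7 CPM in 379 (left and right). The left limb of 377 stood far above its right limb but below both limbs of 379, and its right limb stood with those of 354. Chrnd, the delta subunit, had the same layout, at 19.8 and 24.7 CPM in 354, 75.2 and 19.7 CPM in 377 and 90.2 and 97.3 CPM in 379. Chrng, the fetal gamma subunit, was at 1.24 and 1.38 CPM in 354, 10.3 and 1.89 CPM in 377 and 3.03 and 6.12 CPM in 379. The adult epsilon subunit Chrne differed by 0.46 between the limbs of 377 and the beta subunit Chrnb1 by 0.14.

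The embryonic myosin Myh3 was at 8.94 and 14.8 CPM in 354, 81.5 and 9.2996 CPM in 377 and 31.2 and 84.8 CPM in 379, and the perinatal myosin Myh8 at 11.7 and 31.99 CPM in 354, 66.6 and 7.304 CPM in 377 and 18.8 and 68.7 CPM in 379. In 377 the left limb was the higher, in 354 and 379 the right limb. The adhesion molecule Ncam1 was at 34.7 and 5.61 CPM and the fusion protein Mymk at 5.44 and 0.726 CPM in the left and right limb of 377. Scd, a desaturase of fatty acid synthesis that stands in another list, was at 54.9 and 2.71 CPM there and at 3.76 to 14.4 CPM in the other 4 limbs. The left limb of 377 also read higher in matrix genes, summed at 1479 against 919 CPM, and in macrophage markers, summed at 317 against 158 CPM. The part of these cells in the disuse genes was not tested. In the TTX animals the median of the list was 2.46 to 2.79 after repeated atrophy. It was 0.49, 2.05 and 2.44 after atrophy and 0.01, 0.77 and 2.99 after recovery, so that 377 lay above 3 of the 9 TTX animals.

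**Figure D2:**
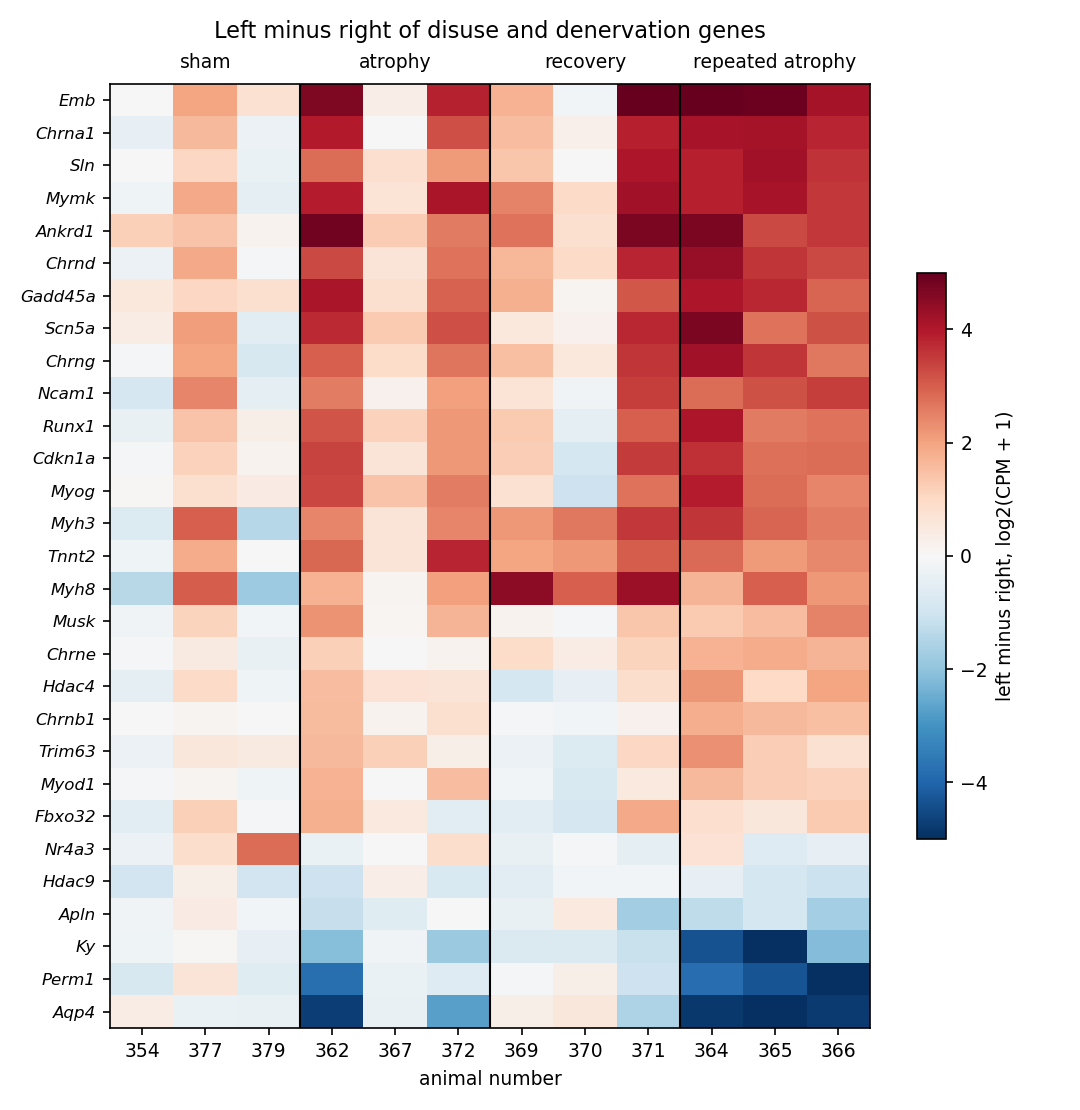
Left minus right difference, on the log2(CPM + 1) scale, of 29 disuse and denervation genes in 12 animals, red for higher and blue for lower in the left limb, with genes ordered by their mean in the repeated atrophy animals. Sham 377 has 17 genes at least 2-fold higher in the left limb, and sham 354 and 379 have 1 each.

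Differences between animals made up most of the variation in the 6 sham limbs. Over 6856 rows with a mean of at least 10 CPM, the animal took a median of 85.7% of a row's sum of squares, the limb 2.92% and the rest 7.44%. The animal term, with 3 animals, has more levels than the limb term, so part of its larger share arises by construction. The order of the 3 animals was the same in both limbs for 3928 rows (57.3%). On principal components of the 6 limbs, the first (46.7% of variance) set 379 apart, with scores of 48.2 and 42.5 for its left and right limb beside −13.0 and −11.8 for 354 and −30.0 and −35.9 for 377. The second (35.5%) set 354 apart, at −39.4 and −39.3.

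The limma test of the animal term sets differences between animals against the left-right spread. It called 4335 of 13483 rows (32.2%), and 6284 (46.6%) had an unadjusted p below 0.05. Grouped by the animal that stood farthest from the other animals, 861 called rows were highest in 354 (6.39%) and 73 lowest (0.541%). For 377, 325 were highest (2.41%) and 1277 lowest (9.47%), and for 379, 1373 were highest (10.2%) and 426 lowest (3.16%). These p-values say how far animals differ relative to the limbs of 1 animal and hold no replicate of a time point. Without animal 379, 614 rows were called, and without 354, 2872. The median row of 377 was 0.26 below the other animals on the log2 scale, while those of 354 and 379 were 0.08 and 0.10 above. After rescaling by a trimmed mean of M values these medians were −0.04, −0.02 and −0.02, and 3132 rows were called, 2724 of them among the 4335. Directions for 377 are read against that shift, and "rescaled" refers to this scaling from here on.

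**Figure D3:**
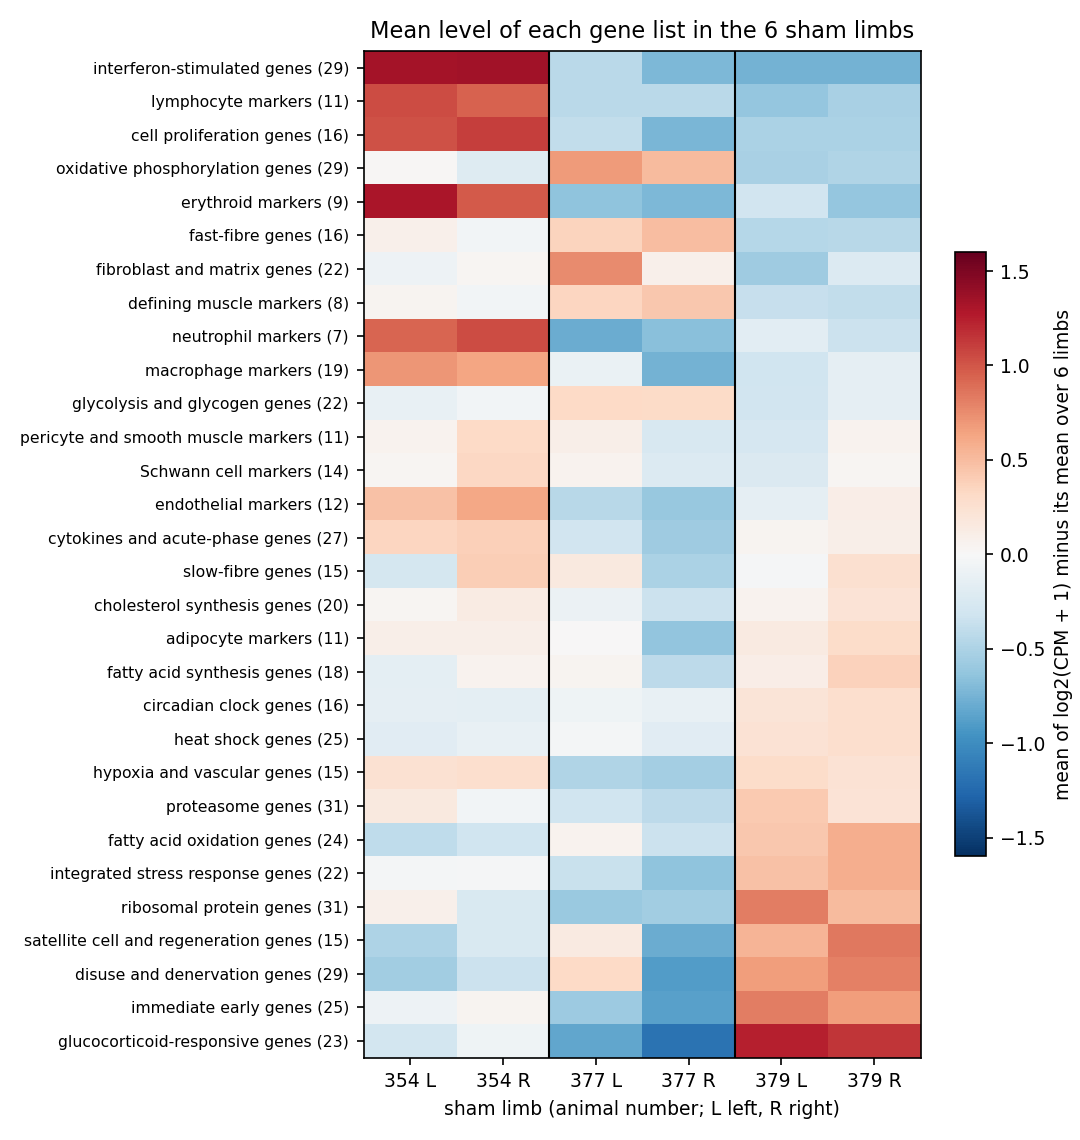
Mean level of 30 gene lists in the 6 sham limbs (number of measured genes in brackets), as log2(CPM + 1) minus the mean over the 6 limbs, red for higher and blue for lower, ordered by the level in 379. Black lines part the animals. Both limbs of an animal lie on 1 side of the mean in 21 lists for 354, 22 for 377 and 26 for 379, and for all 3 animals at once in 14 of the 30 lists.

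Animal 354 was highest in most interferon-stimulated genes. Of 29 interferon-stimulated genes 26 were called (89.7%, beside 32.2% of all rows), 25 of them highest in 354 (23 when rescaled). The median difference of 354 from the other animals was 2.09 on the log2 scale, beside 0.08 over all rows. Irf7, the transcription factor that amplifies the response, was at 76.1 and 81.9 CPM in 354, 5.67 and 5.95 CPM in 377 and 2.56 and 2.201 CPM in 379. Mx2, an antiviral GTPase, was at 49.9 and 57.4 CPM in 354, 4.12 and 3.49 CPM in 377 and 1.94 and 1.94 CPM in 379. Isg15, a ubiquitin-like protein, was at 23.3 and 18.5 CPM in 354 and at 1.79 to 2.62 CPM in the other limbs. In each of these genes both limbs of 354 lay above all other sham limbs and above all 9 contralateral limbs, whose highest values were 7.22 CPM, 4.58 CPM and 2.26 CPM. In 28 of the 29 genes both limbs of 354 were above all 9 contralateral limbs, which held for 12.5% of rows with a mean of at least 10 CPM. Ifit1 was at most 0.194 CPM in any sham limb and did not pass, nor did Stat2 (adjusted p = 0.12) and Ifih1 (adjusted p = 0.09).

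Many interferon-stimulated genes carry in their promoters the interferon-stimulated response element, bound by factors of the IRF and STAT families. The 250 bases before the start of each gene were searched on both strands for GAAA, any 2 bases and GAAA again, which reads TTTC, any 2 bases and TTTC on the other strand. RefSeq promoters (GRCr8) were found for 20 of the 29 genes. The letters were present in 13 of them, and in 1140 of 33469 promoters (3.41%). Of the 13 genes with the letters 12 were called, and 6 of the 7 without them, with median differences of 354 from the other animals of 2.34 and 1.30. The 4 called genes with the letters and the largest difference are shown because their promoters let the motif be seen in place, with up to 40 bases on each side, 5′ to 3′ on the strand of the gene, with the match in capitals.
Irf7, chr1:205800043-205800132, minus strand: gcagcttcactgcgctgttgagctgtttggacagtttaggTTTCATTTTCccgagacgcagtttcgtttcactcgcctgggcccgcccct
Ifit3, chr1:241527242-241527325, plus strand: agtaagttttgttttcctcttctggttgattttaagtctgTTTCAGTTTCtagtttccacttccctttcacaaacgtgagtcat
Oasl2, chr12:47383287-47383376, minus strand: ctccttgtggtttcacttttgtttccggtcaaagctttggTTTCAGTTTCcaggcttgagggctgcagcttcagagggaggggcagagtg
Rsad2, chr6:48788218-48788307, minus strand: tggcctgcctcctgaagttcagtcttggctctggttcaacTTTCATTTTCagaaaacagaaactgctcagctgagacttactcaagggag
A match describes the letters only. Ifit3 was at 39.8 and 37.96 CPM in 354 and at 2.66 to 7.27 CPM in the other limbs, Oasl2 at 17.98 and 18.998 CPM beside 1.73 to 2.56 CPM, and Rsad2, which makes an antiviral nucleotide, at 23.5 and 25.95 CPM beside 2.04 to 4.34 CPM. In all of them the limbs of 354 were close to each other and apart from the rest.

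The largest differences among rows called and highest in 354 were those of Gzmk, Gzmb, Ccl5, Slfn4, Prf1 and Nkg7. Granzymes and perforin are proteins with which cytotoxic lymphocytes kill other cells. Gzmb, granzyme B, was at 68.9 and 59.3 CPM in 354, 0.3098 and 1.55 CPM in 377 and 1.08 and 0.6798 CPM in 379, a difference of 5.14 between 354 and the others (limma adjusted p = 0.0028). Gzmk, granzyme K, was at 47.9 and 37.3 CPM in 354 beside 0.129 to 0.472 CPM, and Prf1, perforin, at 85.7 and 82.01 CPM beside 1.04 to 3.34 CPM. That both limbs of 354 exceeded the other sham limbs was part of the rule that chose these genes. The chemokine Ccl5 was at 102 and 73.3 CPM beside 0.6798 to 2.81 CPM, and Slfn4 at 411 and 397 CPM beside 6.08 to 18.7 CPM. In the contralateral limbs the highest value was 21.7 CPM for Slfn4 and 12.5 CPM for Ccl5, so 354 was above them too.

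Of 11 lymphocyte markers 4 were called (36.4%, beside 32.2% of all rows), all highest in 354: Gzmb, Nkg7, Cd2 and Cd8a, the last at 32.1 and 27.2 CPM beside 0.539 to 1.06 CPM. The T cell receptor complex genes Cd3e, Cd3d and Cd3g did not pass and were at most 0.539 CPM in any sham limb. Neutrophil markers (4 of 7 called, all highest in 354) included S100a9 at 23.8 and 17.2 CPM beside 0.708 to 4.82 CPM. Macrophage markers had 8 of 19 called (42.1%, beside 32.2% of all rows), 5 highest in 354 and 3 lowest in 377 (7 and 0 when rescaled). Of their defining members Cd163 passed while Cd68, Mrc1 and Csf1r did not. Of 27 cytokine and acute-phase genes 10 were called (37.0%, near the 32.2% of all rows), 4 highest in 354 and 6 lowest in 377. Over all rows 6.39% were called and highest in 354, and 9.47% called and lowest in 377. Cxcl10 was at 8.27 and 5.33 CPM in 354 beside 0.227 to 0.841 CPM. Il6 was at most 0.162 CPM in any sham limb.

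Proliferation genes had 13 of 16 called (beside 32.2% of all rows), 10 of them highest in 354 (beside 6.39%). Mki67, a marker of dividing cells, was at 17.2 and 13.8 CPM in 354 beside 0.3705 to 1.77 CPM, and Rrm2, which makes DNA precursors, at 9.71 and 8.67 CPM beside 0.0971 to 0.841 CPM. Erythroid markers had 8 of 9 called and 7 highest in 354, with Slc4a1, the red cell anion exchanger, at 12.2 and 11.7 CPM beside 0.266 to 1.62 CPM. The summed erythroid level was 2207 and 1602 CPM in 354 and 505 to 749 CPM in the others. Endothelial markers had 9 of 12 called, 3 highest in 354 and 6 lowest in 377 (4 and 2 when rescaled), with Pecam1 at 221 and 245 CPM in 354, 81.2 and 72.2 CPM in 377 and 133 and 162 CPM in 379. Most interferon, dividing-cell and blood genes and 4 of 11 lymphocyte markers were thus highest in the same animal, and the part of blood in the other lists was not tested. Among rows lowest in 354 were Dusp29, at 5.55 and 5.54 CPM beside 14.4 to 33.02 CPM, and Smad3, a mediator of TGF-beta signals, at 65.7 and 90.3 CPM beside 169 to 188 CPM.

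**Figure D4:**
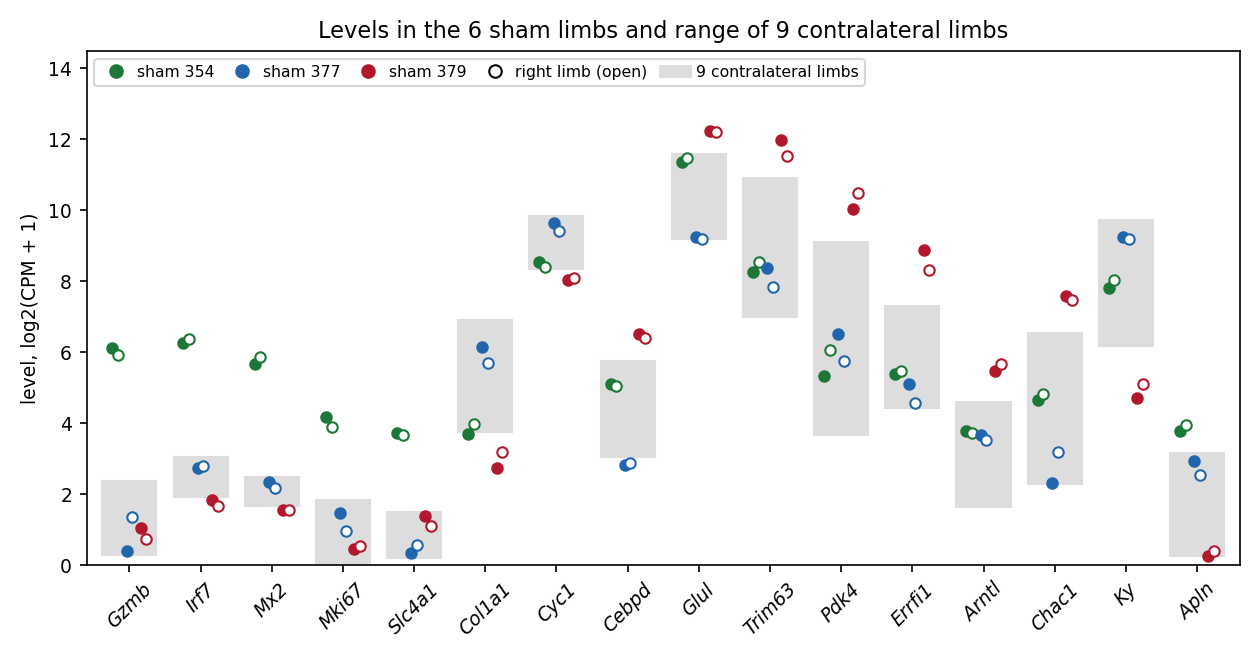
Levels of 16 genes, as log2(CPM + 1), in the left (filled) and right (open) limbs of sham 354 (green), 377 (blue) and 379 (red), with the range of 9 contralateral limbs in grey. Both limbs of 354 lie above the grey range for Gzmb, Irf7 and Mki67, and both limbs of 379 for Trim63, Pdk4 and Errfi1.

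Animal 377 stood farthest from the others, and highest, in most oxidative phosphorylation genes, except under quantile normalization. All 29 oxidative phosphorylation genes were called, 26 highest in 377 and 3 lowest in 379 (27 and 2 when rescaled). Under quantile normalization 28 were called, 13 highest in 377 and 15 lowest in 379. This split counts only the animal farthest from the others. The median difference of 377 from the other animals was 0.92 as deposited and 0.95 under quantile normalization, and that of 379 was −0.75 and −0.98. Cyc1, of complex III, was at 376 and 339 CPM in 354, 800.4 and 689 CPM in 377 and 259.6 and 274 CPM in 379, and Ndufv1, of complex I, at 265 and 264 CPM in 354, 593 and 474 CPM in 377 and 175 and 204 CPM in 379. The limbs of the 3 animals did not overlap for either gene. In this list 11 of 29 genes were below all 9 contralateral limbs in both limbs of 379 (6.15% of rows with a mean of at least 10 CPM), and 0 were above or below them in both limbs of 377. Glycolysis and glycogen genes had 11 of 22 called, 6 highest in 377 and 3 lowest in 379 (9 and 2 when rescaled, 3 and 7 under quantile normalization). Over all rows 32.2% were called as deposited, 2.41% highest in 377 and 3.16% lowest in 379. Pgam2, a phosphoglycerate mutase of muscle, was among those highest in 377, at 3103 and 3261 CPM beside 846 to 1615 CPM.

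Lamb3, Col3a1, Col1a1, Col1a2, Mdga1 and Dhrs11 had the largest differences among rows highest in 377. Lamb3, a laminin chain of the basement membrane, was at 32.9 and 23.6 CPM in 377 beside 0.0971 to 1.41 CPM. Contralateral limbs spanned 0.584 to 38.998 CPM, and the 3 of the recovery time point, that of 377, were at 29.4 to 38.998 CPM. Col3a1 was at 176 and 93.9 CPM beside 9.6997 to 33.3 CPM, and Col1a2 at 115 and 66.1 CPM beside 8.55 to 23.6 CPM. The recovery contralateral limbs were at 92.6 to 167 CPM for Col3a1 and at 80.9 to 132 CPM for Col1a2, and Cyc1 was at 755 to 914 CPM in them and at 322 to 558 CPM in the other 6. Of the 325 rows highest in 377, 133 (40.9%) had all 3 recovery contralateral limbs above the other 6, beside 2.91% of all rows. Of the 1277 rows lowest in 377, 355 (27.8%) had them below the other 6, beside 8.4% of all rows. Both counts use deposited values and were not rescaled. The same counts for the time points of 354 and 379 were 9 of 861 rows highest in 354 (1.05%, beside 3.79%) and 3 of 1373 highest in 379 (0.218%, beside 0.653%). Rows lowest in 354 had 0 of 73 (0.0%, beside 1.01%) and rows lowest in 379 had 6 of 426 (1.41%, beside 0.675%). Of 22 fibroblast and matrix genes 8 were called (36.4%, beside 32.2% of all rows), 5 highest in 377 (11 and 9 when rescaled), and of the defining fibroblast markers Lum and Col1a1 passed while Pdgfra and Dcn did not.

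Lowest in 377 by the same rule were Serpina3n, Emb, Cebpd, Ogfrl1, Myc and Apold1. Serpina3n, an acute-phase protease inhibitor, was at 23.1 and 28.9 CPM in 354, 2.66 and 1.11 CPM in 377 and 14.9 and 20.7 CPM in 379. Its contralateral range was 1.596 to 7.46 CPM, so both limbs of 354 and 379 were above it. Cebpd, a transcription factor induced by glucocorticoids and inflammation, was at 33.4 and 32.1 CPM in 354, 6.11 and 6.44 CPM in 377 and 90.9 and 83.7 CPM in 379, and both limbs of 377 were below the lowest contralateral limb (7.33 CPM). Myc, which drives growth, was at 17.9 and 21.3 CPM in 354, 6.37 and 3.49 CPM in 377 and 72.3 and 58.4 CPM in 379. The 3 animals were apart from each other in both genes. The proteasome list depended on scaling: 27 of 31 were called as deposited, 17 lowest in 377 and 9 highest in 379, but 6 when rescaled, 1 lowest in 377 and 4 highest in 379. Of all 13483 rows 4335 were called as deposited and 3132 when rescaled.

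Animal 379 was highest in part of the disuse and denervation genes and in most glucocorticoid-responsive genes. Of 29 disuse and denervation genes 17 were called (58.6%, beside 32.2% of all rows), 11 highest and 3 lowest in 379 (beside 10.2 and 3.16% of all rows). The median difference of 379 from the other animals was 1.46 (1.28 when rescaled), beside 0.10 over all rows. Trim63, the ubiquitin ligase MuRF1, was at 307 and 371 CPM in 354, 333 and 227 CPM in 377 and 4029 and 2957 CPM in 379. Both limbs of 379 were above the highest contralateral limb, which was at 1925 CPM. Fbxo32, the ubiquitin ligase atrogin-1, was at 103 and 107 CPM in 379 beside 8.42 to 34.6 CPM. Myog, a myogenic factor raised when nerve activity stops, was at 179.9 and 134 CPM beside 35.5 to 63.1 CPM. In the contralateral limb of TTX animal 372, Fbxo32 and Myog were at 92.4 and 132 CPM, close to the levels of 379. Myf5, a factor of muscle precursors that stands in the list of satellite cell genes, was at 68.6 and 52.1 CPM beside 1.06 to 4.43 CPM. The receptor subunits Chrna1 (adjusted p = 0.073) and Chrnd (adjusted p = 0.07) did not pass in this limma test.

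Glucocorticoid-responsive genes had 20 of 23 called (87.0%, beside 32.2% of all rows), 15 highest in 379 and 5 lowest in 377 (14 and 4 when rescaled). Errfi1, a brake on growth factor receptors, was at 470.0 and 319 CPM in 379 beside 22.7 to 43.3 CPM. Glul, glutamine synthetase, was at 2655 and 2865 CPM in 354, 607 and 586 CPM in 377 and 4858 and 4719 CPM in 379. Klf15, a factor of amino acid breakdown, was at 116 and 118 CPM beside 35.3 to 65.1 CPM. In 16 of the 23 genes both limbs of 379 were above all 9 contralateral limbs (27.6% of rows with a mean of at least 10 CPM). Fkbp5, at 90.4 and 104 CPM in 379 beside 43.1 to 63.5 CPM, was not one of them, since contralateral limbs spanned 31.5 to 162 CPM. Nr3c1, the glucocorticoid receptor, was at 82.6 to 107 CPM in all 6 limbs and did not pass.

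Fatty acid oxidation genes had 15 of 24 called, 9 highest in 379 and 2 highest in 377 (7 and 8 when rescaled), so that the animal with more of them depended on scaling. Their median difference was 0.34 for 379 and −0.07 for 377 as deposited, and 0.15 and 0.18 when rescaled. Over all rows 32.2% were called as deposited, 10.2% highest in 379 and 2.41% highest in 377. Pdk4, which diverts pyruvate from oxidation, was at 1049 and 1447 CPM in 379 beside 38.98 to 90.8 CPM, with contralateral limbs at 11.8 to 555 CPM. Angptl4, a lipase inhibitor induced by fasting, was at 123 and 130.2 CPM beside 2.66 to 6.505 CPM, and the fatty acid transporter Cd36 at 905 and 706 CPM beside 135 to 232 CPM. In these genes 379 exceeded all contralateral limbs. Enzymes of the oxidation spiral were divided, with Hadhb highest in 379 (1188 and 1315 CPM beside 637 to 982 CPM) and Acadm highest in 377 (1145 and 924 CPM beside 475 to 685 CPM). Cyp2e1, a cytochrome P450 enzyme raised by fasting, was at 55.8 and 55.4 CPM beside 0.221 to 2.86 CPM.

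Genes of the integrated stress response had 12 of 22 called, 9 highest in 379. Over all rows 32.2% were called as deposited, and 10.2% were called and highest in 379. The transcription factor Atf4 was at 1190.0 and 1051 CPM in 379 beside 387 to 618 CPM, and its target Chac1 at 193 and 177 CPM beside 4.03 to 27.2 CPM. Immediate early genes had 18 of 25 called, 8 highest in 379 and 10 lowest in 377 (8 and 6 when rescaled), with Maff at 85.1 and 61.8 CPM in 379 beside 5.47 to 12.6 CPM. Nr4a3 was at 60.1 and 7.87 CPM in the left and right limb of 379 and at 0.339 to 2.03 CPM elsewhere, a large gap within 1 animal. Ribosomal protein genes had 31 of 31 called, 26 highest in 379 and 5 lowest in 377, and 21 when rescaled, all highest in 379. Heat shock genes had 13 of 25 called and 10 highest in 379. When rescaled 10 were called, 3 highest in 379 and 4 lowest in 354, where 3132 of all 13483 rows were called.

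Of 16 circadian clock genes 10 were called (62.5%, beside 32.2% of all rows). Of these, 3 were highest and 3 lowest in 377, 3 highest in 379 and 1 highest in 354. Arntl, the core activator, was at 43.04 and 49.6 CPM in 379 beside 10.6 to 12.7 CPM, above the highest contralateral limb at 23.1 CPM. Its partner Clock was at 52.995 and 52.6 CPM beside 21.2 to 24.3 CPM. Nr1d1, which represses Arntl, was highest in 377, at 128 and 147 CPM beside 55.7 to 100.5 CPM. The study's methods place all rat tissue collections within 1 fixed span of hours of the day, early in the inactive phase, and the hour for each animal is not given in the sources used here.

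Lowest in 379 by the same rule were G0s2, Ky, P2rx6, Neu2, Doc2g and Apln. G0s2, an inhibitor of fat breakdown, was at 28.6 and 36.3 CPM in 354, 63.6 and 80.1 CPM in 377 and 1.08 and 0.421 CPM in 379. The lipase it inhibits, Pnpla2, was highest in 379, at 1201 and 1104 CPM beside 173 to 247 CPM. Ky, a protein of the sarcomere, was at 25.3 and 33.7 CPM in 379 beside 224 to 611 CPM, and Apln, a peptide hormone of muscle and vessels, at 0.202 and 0.324 CPM beside 4.79 to 14.6 CPM. For G0s2 and Ky both limbs of 379 were also below all contralateral limbs, whose lowest values were 2.41 CPM and 72.1 CPM. For Apln the lowest contralateral limb, at 0.206 CPM, lay between the limbs of 379. Of 16 fast-fibre genes 8 were called, 4 lowest in 379 and 3 highest in 377 (2 and 5 when rescaled, 5 and 0 under quantile normalization). Over all rows 32.2% were called as deposited, 3.16% lowest in 379 and 2.41% highest in 377. The calcium buffer Pvalb was at 1298 and 897 CPM in 354, 2306 and 2787 CPM in 377 and 471 and 372 CPM in 379. The fast myosins Myh4 and Myh1 did not pass, at 40439 to 53509 CPM and 41890.0 to 54097 CPM.

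Against the 9 contralateral limbs, which come from animals with a TTX-treated left limb, animal 379 lay outside most often. Of 6766 rows, 1865 (27.6%) were above all 9 limbs in both limbs of 379 and 416 (6.15%) below. For 354 these were 848 (12.5%) and 123 (1.82%), and for 377 88 (1.3%) and 45 (0.665%). All counts against contralateral limbs use deposited values and were not rescaled. The top 10 rows took 21.8 and 23.3% of the libraries of 379 and 24.3 to 32.8% of contralateral libraries. The part of this in the counts was not tested. Among the lists, 379 was above in 28 of 31 ribosomal protein genes, 15 of 25 immediate early genes, 14 of 22 stress response genes and 12 of 29 disuse genes. For 354 the lists with the highest share of such members beside the interferon genes were endothelial (11 of 12), macrophage (16 of 19) and proliferation genes (13 of 16).

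The differences of 379 from the other sham animals were set beside the effect of TTX, the mean left minus right difference of the 3 repeated atrophy animals. Over 6766 rows the correlation was r = 0.46 in left and 0.49 in right limbs for 379 (Spearman 0.42 and 0.44). It was −0.30 and −0.25 for 354 (Spearman −0.21 and −0.23) and −0.28 and −0.33 for 377 (Spearman −0.30 and −0.26). For left minus right differences within sham animals it was 0.19, 0.27 and 0.30 for 354, 377 and 379 (Spearman 0.23, 0.18 and 0.32), so that the place of 377 depended on the measure. Genes are not independent, the sham animals are each compared with the other sham animals, and all values share 1 table, so these are descriptions. For 379 the values of left and right limbs were alike.

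**Figure D5:**
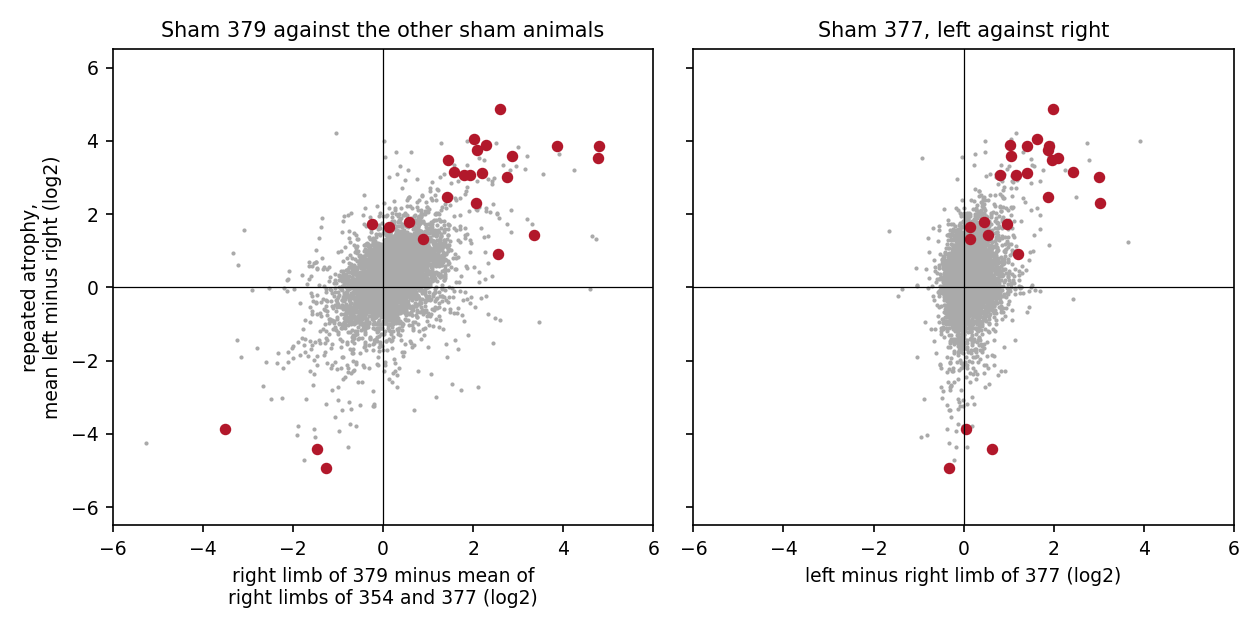
Left minus right difference after repeated atrophy (mean of 3 animals) against differences in sham limbs, both on the log2(CPM + 1) scale, for 6766 rows in grey with the 25 of 29 disuse and denervation genes in red whose mean over all 24 limbs, TTX limbs included, was at least 10 CPM. The horizontal axis is the right limb of 379 minus the mean of the right limbs of 354 and 377 in the left panel, and the left minus the right limb of 377 in the right panel. Of all 29 genes, with Apln, Hdac9, Musk and Nr4a3 not drawn, 27 have the same sign on both axes for 379, where 73.2% of the rows drawn do, and 24 for 377, where 61.5% do. The list was chosen with earlier results of these data known, so these counts are descriptions.

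The test of the operation against TTX compares the left minus right difference of the 3 repeated atrophy animals with that of the 3 sham animals. It called 616 of 14134 rows (4.36%), 418 higher (2.96%) and 198 lower (1.4%) after repeated atrophy. When rescaled 504 were called, 214 higher and 290 lower, with 398 rows shared, so the balance of directions depends on scaling. The call also depends on each animal: without sham 354, 377 or 379 it left 0, 1 and 0 rows, and without TTX animal 364, 365 or 366 it left 82, 0 and 12. Of the 29 disuse genes 7 were called. Chrnb1, Chrnd, Chrne and Sln, an inhibitor of the calcium pump, were higher, and Ky, the mitochondrial regulator Perm1 and the water channel Aqp4 lower. Aqp4 had left minus right values of 0.36, −0.32 and −0.35 in sham and −5.21 to −4.77 after repeated atrophy, with no overlap. Chrna1, at −0.41, 1.64 and −0.29 in sham and 3.81 to 4.17 after repeated atrophy, did not overlap either but did not pass (adjusted p = 0.053). Trim63, at −0.27, 0.55 and 0.45 against 0.76 to 2.30, did not pass (adjusted p = 0.15). In 20 of the 29 genes all repeated atrophy animals were above all sham animals (26.5% of all rows), and in 4 below (7.61%). The list was chosen with earlier results of these data known, so its excess over all rows is no independent support. Of 22 glycolysis and glycogen genes 9 were called, all lower after repeated atrophy.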

How the data were processed

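RNA from both TA muscles of 12 rats was sequenced as directional polyA libraries. The authors removed contaminants with Bowtie2 2.2.5, aligned reads to rn7 with STAR and quantified them in Partek Flow. The counting annotation is not given in the sources used here. The deposited table holds CPM per row, made by the authors, and each column totals 1000000. It has 14271 rows and 27 value columns, of which 24 match a sample and 3 match none and were not used. Dropping 28 duplicate rows left 14243. With a tolerance of 0.02 of a step, 87.2 to 88.2% of low values in sham limbs were whole reads, so reads were not recovered and no count test was run.

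Values were taken as log2(CPM + 1), which understates changes of low genes, keeping rows with values over 0 in 3 or more fitted samples. limma 3.58.1 (R 4.3.3, trend) was fitted with limb and animal as terms for the 6 sham limbs, and to all 24 limbs with animal as block for the comparison with repeated atrophy. A row was called at a p of 0.05 or less after Benjamini-Hochberg adjustment with a fold of 1.2 or more. Limbs are paired by animal in the labels, and the deviation of an animal from the mean of the 3 correlated across genes between its limbs at 0.80 (354), 0.70 (377) and 0.90 (379). With 3 pairs an exact permutation test cannot give a two-sided p below 0.25.

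No row was called for left against right, so the genes named there are up to 10 in each direction, largest fold first, with an unadjusted p below 0.05, 1 direction in all 3 animals and a mean of at least 10 CPM in 1 limb group. For each animal the 6 called rows highest and the 6 lowest in it were named, with both limbs beyond all 4 limbs of the others and a mean of at least 10 CPM in the highest animal. Other genes come from the 30 lists. Some genes that these rules name are not reported here. Members and lists were chosen with earlier results of these data known. Fits were tested on simulated data. Alternatives covered the pseudocount, the filter, the scaling, limma settings, the block and each animal left out. Single rows were used for gene symbols with several rows (513 of 13458), by the highest mean.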

Additional observations from a re-analysis of the deposited data

Results flagged for a closer look

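The left minus right difference after repeated atrophy and after sham was tested directly, and limma called 616 rows. The calls rest on each animal, since 0 rows were called without sham 354 or 379 or TTX animal 365, 1 without sham 377, 12 without TTX animal 366 and 82 without TTX animal 364, and 3 without the animal as block. Among the disuse and denervation genes 7 were called. The differences of repeated atrophy minus sham, on the log2 scale, were 1.598 for Chrnb1, 3.26 for Chrnd, 1.77 for Chrne and 3.67 for Sln. They were −3.67 for Ky, −4.14 for Perm1 and −4.83 for Aqp4. Each group holds 3 animals.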

How the results depend on the processing

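For left against right, limma called 0 rows under every alternative tried, with 576 rows at an unadjusted p below 0.05 as reported and 85 without the animal as block, 253, 2411 and 210 without animal 354, 377 and 379. Between animals, leaving out 1 animal gave 614 to 4566 called rows (2872 without 354, 4566 without 377, 614 without 379), and all other alternatives stayed within 1.5 times of 4335. The comparison with repeated atrophy was the least stable. Its 616 rows became 342 with no filter, 1239 with a mean of at least 1 CPM, 1269 with a mean of at least 10 CPM and 3 without the replicate block, that is without the pairing of limbs by animal. Leaving out 1 animal gave 0 to 82 rows. The share of its called rows that were higher was 67.9% as deposited and 42.5, 42.1 and 42.9% after trimmed mean, quantile and median of ratios scaling. Hdac9, at −0.25, had a difference of 0.16 without animal 377, and −0.46 to 0.16 over all animals left out in turn. Of 1507 values of named genes under alternatives, 1409 kept direction and side of the threshold. The cause of these shifts was not tested. Depth limits genes near 0, and 3 animals limit all tests.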
